A study of Mus musculus and Homo sapiens with 6 samples.

Results

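The block described here is the stretch of mouse chromosome 15 from 61 to 64 Mb (build mm10) that carries the Myc proto-oncogene and Pvt1, a gene for a long non-coding RNA (lncRNA), and its members are the ATAC-seq peaks with their centre inside it. There were 372 such peaks of 38878 in the library from 25000 cells, 362 of 43832 in that from 50000 cells, 330 of 41509 in that from 75000 cells and 309 of 45530 in that from 100000 cells. The block was chosen by the density and the scores of the peaks in these same lists, so its density, its scores and its edges are given as a description and support nothing further.

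All 4 libraries came from NMuMG, an established epithelial cell line of the mouse mammary gland, cultured in medium with serum, used at a low passage and not treated. They differ in the number of cells put in, with 1 library at each of 25000, 50000, 75000 and 100000 cells, so the spread between libraries made alike is unknown and cell numbers were not tested against each other. ATAC-seq uses the Tn5 transposase to insert sequencing adapters into accessible DNA, and the study set out to tune this protocol. The human samples of the series, 2 of the line MDA-MB-231, were not used here.

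MYC is a transcription factor that pairs with MAX and binds many genes of growth and metabolism. In mouse and human its gene lies in a region with few other protein-coding genes, and enhancers spread over a long distance to either side act on it in a manner that depends on the tissue. Pvt1 follows Myc on the chromosome, holds some of these enhancers, and is gained in copy number or rearranged together with Myc in a number of tumours. The Gsdmc genes further along encode gasdermins, a family of proteins that form membrane pores, and Cyrib encodes a protein that binds the small GTPase Rac and restrains actin remodelling.

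RefSeq promoter sequences, each from 250 bases before to 50 bases after an annotated start on GRCm38.p6 (the assembly that mm10 names), were held for 11 genes of the block. They are shown for Gm30113 and Gm41334, both of which had a gene-end peak in every library, for Gm20740, whose promoter was overlapped by a peak in some libraries and which was chosen after its values were seen, and for Gsdmc3, which had no peak. Capitals mark the motifs found on either strand. The sequences lie, on build mm10, at chr15:62953966-62954265 (Gm30113, an lncRNA gene on the plus strand), chr15:63070715-63071014 (Gm41334, lncRNA, minus strand), chr15:63479559-63479858 (Gm20740, lncRNA, minus strand) and chr15:63878509-63878808 (Gsdmc3, protein-coding, minus strand).
Gm30113: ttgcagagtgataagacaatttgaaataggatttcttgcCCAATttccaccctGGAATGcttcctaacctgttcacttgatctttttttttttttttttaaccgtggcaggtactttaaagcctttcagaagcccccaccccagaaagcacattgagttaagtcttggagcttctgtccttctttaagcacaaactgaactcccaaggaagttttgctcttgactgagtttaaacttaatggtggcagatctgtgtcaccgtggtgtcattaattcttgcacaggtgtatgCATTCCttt
Gm41334: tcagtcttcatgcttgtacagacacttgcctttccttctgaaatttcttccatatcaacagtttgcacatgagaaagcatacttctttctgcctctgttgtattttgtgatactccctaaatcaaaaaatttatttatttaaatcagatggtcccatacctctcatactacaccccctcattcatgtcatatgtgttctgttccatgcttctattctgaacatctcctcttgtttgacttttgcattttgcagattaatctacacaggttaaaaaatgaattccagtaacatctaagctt
Gm20740: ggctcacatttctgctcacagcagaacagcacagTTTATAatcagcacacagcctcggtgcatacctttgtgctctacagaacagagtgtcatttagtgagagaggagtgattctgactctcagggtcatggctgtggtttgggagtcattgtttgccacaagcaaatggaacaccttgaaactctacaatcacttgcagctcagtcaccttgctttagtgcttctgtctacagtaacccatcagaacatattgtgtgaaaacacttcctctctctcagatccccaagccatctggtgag
Gsdmc3: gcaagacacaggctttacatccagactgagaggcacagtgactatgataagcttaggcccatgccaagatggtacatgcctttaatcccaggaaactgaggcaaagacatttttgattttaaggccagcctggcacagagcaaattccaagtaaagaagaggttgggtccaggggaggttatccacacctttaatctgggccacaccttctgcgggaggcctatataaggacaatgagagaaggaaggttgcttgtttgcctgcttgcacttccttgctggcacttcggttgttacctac

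The motifs searched were the AP-1 motif TGANTCA, the E-box letters CACGTG, the TEAD motif GGAATG, the GC box as GGGCGG, the CCAAT box by its own letters, the TATA box as TATAAA and the ETS motif CCGGAA. The Gm30113 promoter held 2 TEAD matches and 1 CCAAT box, and the Gm20740 promoter held 1 TATA box. The promoters of Gm41334 and Gsdmc3 held none of the 7. Among all 32851 promoters of the table, 14.7% held the TEAD letters, 37.4% the CCAAT box, 13.6% the TATA box, 7.81% the AP-1 letters, 7.15% the E-box, 35.7% the GC box and 14.9% the ETS letters. In the Gm20740 promoter, peaks with scores of 9 and 17 overlapped the sequence at 25000 and 50000 cells, and none did at 75000 and 100000 cells. The Gm30113 sequence was not itself overlapped by a peak, its nearest peak centre lying between 0.385 and 0.559 kb away. A match is a run of letters and not a measured binding site.

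The block stood out as the longest dense stretch of the peak lists. Counted in bins of 100 kb, the 27206 bins of the genome outside the mitochondrial chromosome had a median of 0.250 peaks, averaged over the 4 libraries, and 12663 of them (46.5%) had no peak in any library. The 95th percentile was 6.75 peaks and the 99th was 10.8. In the block, 16 of 30 bins reached the 99th percentile and 23 reached the 95th. The unbroken run of bins through Myc at or above the 99th percentile had 11 bins and extended from 61.4 to 62.5 Mb. At the 95th percentile the run had 23 bins, from 61.3 to 63.6 Mb, and was the longest of the genome. The next longest, on chromosome 19 from 3.6 to 4.5 Mb, had 9 bins. Of the 20 bins with the most peaks genome-wide, 5 lay in the block, and the densest bin outside it, on chromosome 11 from 3.1 Mb, had 41.2.

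**Figure D1:**
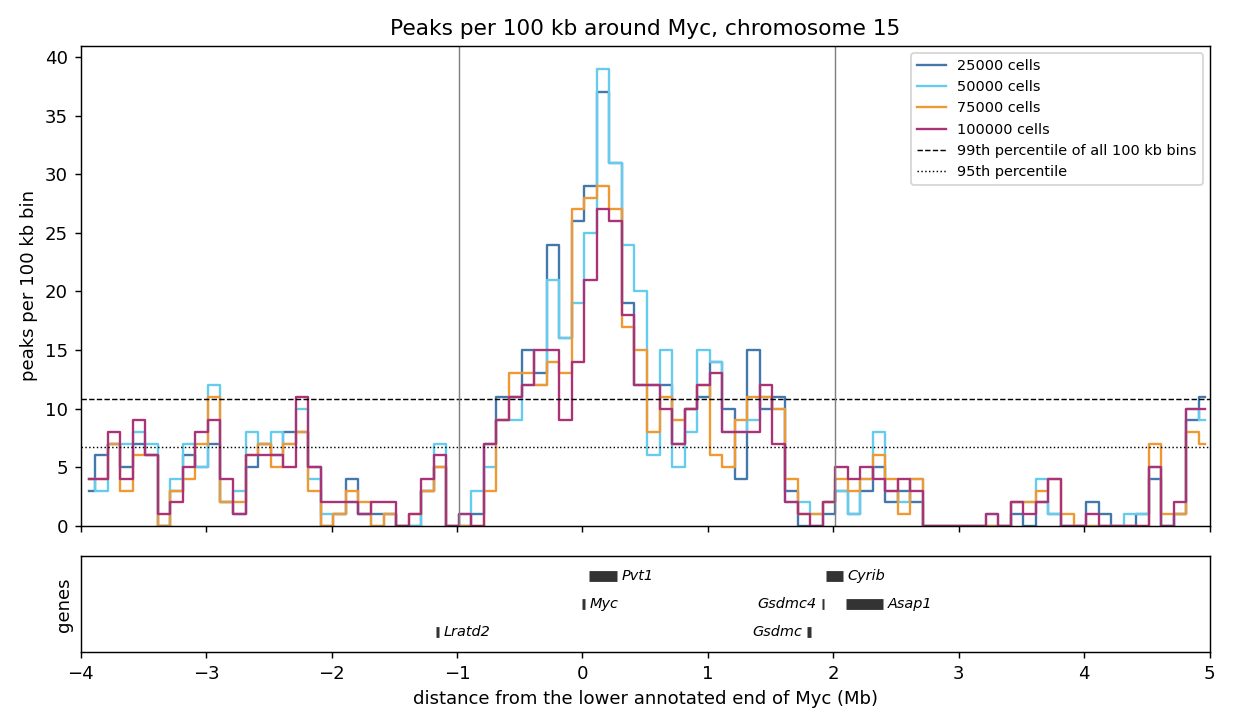
Peaks per 100 kb bin (y axis) against the distance of the bin's middle from the lower annotated end of Myc in Mb (x axis), 1 line per library, with grey lines at the limits of the block, broken and dotted lines at the 99th and 95th percentiles of all bins, and gene extents below. All 4 lines are highest in the bin from 62.1 Mb, inside Pvt1, with 37, 39, 29 and 27 peaks from 25000 to 100000 cells, and are near 0 over the Gsdmc genes.

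The density fell away differently at its edges. At the lower edge of the 99th-percentile run, the 5 bins inside averaged 13.8 peaks and the 5 bins outside 3.30. At the upper edge the 5 bins inside averaged 24.4 and the 5 outside still 10.1, since the block continued at a lower density up to 63.6 Mb. The first 2 bins of the block, from 61 Mb, held 0 to 3 peaks in any library. The bins from 63.7 Mb to the end of the block held 0 to 2, so the limits at 61 and 64 Mb lie in sparse sequence at both sides. The bin just inside the lower limit of the run, from 61.4 Mb, held 11, 9, 13 and 11 peaks, and the one just outside it, from 61.3 Mb, held 11, 9, 9 and 9. At the upper limit, the last bin inside held 12, 20, 15 and 12 peaks and the first outside 12, 6, 8 and 12, so at 25000 and 100000 cells no step was seen there.

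Few peaks lay at the limits themselves. The last peak before 61 Mb scored 19 in the 25000-cell library, 30 in the 50000-cell library, 11 in the 75000-cell library and 39 in the 100000-cell library. The first inside scored 14, 14, 28 and 9. At 64 Mb the last peak inside was that of Cyrib, with scores of 52, 71, 47 and 56, and the first after it, at 64005851 to 64006500 in the library from 100000 cells, scored 19, 29, 31 and 33. The longest stretch of the block without a peak lay beside or over the Gsdmc genes and was 381, 188, 188 and 265 kb long from 25000 to 100000 cells.

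The peaks of the block made up 0.957, 0.826, 0.795 and 0.679% of their lists outside the mitochondrial chromosome, from 25000 to 100000 cells, on 0.110% of the length. They numbered 12.4, 12.1, 11 and 10.3 per 100 kb in the block, 2.75, 3.18, 2.88 and 3.20 in the 3 Mb to either side of it, and 1.42, 1.60, 1.51 and 1.66 in the rest of the genome. The density in the block was thus 8.76, 7.55, 7.26 and 6.19 times that of the rest. Merged peaks covered 5.69, 5.64, 5.17 and 5.19% of the block and 0.766, 0.890, 0.841 and 0.940% of the rest of the genome. The number of copies of the block in these cells was not measured, and its part in the density and the scores was not tested.

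The score of a peak is the authors' own whole number, whose derivation is not given. It was used to rank peaks within a list and to sort them by thresholds that were the same for all lists. Where scores or class counts of different libraries are set side by side, the unknown depth limits the comparison. Strong peaks, with a score of 50 or more, numbered 46, 51, 48 and 59 in the block from 25000 to 100000 cells. That was 12.4% (exact Clopper-Pearson 95% interval 9.20 to 16.1), 14.1% (10.7 to 18.1), 14.5% (10.9 to 18.8) and 19.1% (14.9 to 23.9) of its peaks. Over the whole lists outside the mitochondrial chromosome the shares were 6.44, 9.81, 8.33 and 9.98%, each below the block's interval. These and all later intervals take in counting error alone. The flanks had 3.03, 6.81, 5.20 and 4.69% strong peaks. Because scores helped to choose the block, the excess over these backgrounds is not evidence of its own. The lowest strong scores were 52, 51, 52 and 52, and the highest weak scores 49, 49, 48 and 48.

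The direction of this difference depended on the threshold. Peaks of 25 or more made up 21.5, 22.9, 24.2 and 29.4% of the block's peaks, below the 26.5, 31.0, 29.2 and 31.5% of the rest of the genome in all 4 libraries, with the rest inside the block's interval at 100000 cells and above it at 25000 and 50000 cells; at 75000 cells it lay at the upper bound. Peaks of 100 or more made up 7.26, 8.29, 8.48 and 10.7% of the block's peaks, and 0.408, 1.08, 0.717 and 1.03% of those in the rest of the genome. Strong peaks were spread over the block, with a median distance between neighbours of 26.9, 26.3, 26.9 and 22.3 kb. A strong peak was present in all 4 libraries in 17 of 30 bins (56.7%), against 6% of all bins, and 8 block bins had none in any library.

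Most peaks of the block were weak all the same. The median score was 10, 11, 10 and 13 in the block from 25000 to 100000 cells, against 15, 16, 15 and 16 over the whole lists. In rank, the median block peak was at percentile 24.4, 29.3, 24.5 and 39.2 of its list, while that of the flanks was at 46.6, 43.6, 44.9 and 46.7. At the other end, 36, 31, 30 and 33 block peaks were among the 500 highest outside the mitochondrial chromosome. Of all peaks there, the block held 0.957, 0.826, 0.795 and 0.679%. As scores helped to choose the block, these counts are a description only.

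Split by score, the density of the block over the rest of the genome was highest at both ends. For scores of 8 to 9 it was 17.0, 15.6, 13.9 and 10.6 times that of the rest, and for 50 or more 17.0, 10.9, 12.8 and 11.9 times. In the middle it was lower, at 3.12, 3.82, 4.02 and 3.59 times for scores of 15 to 24 and 3.99, 3.14, 3.37 and 2.97 times for 25 to 49. The class of 10 to 14 lay between, at 9.26, 7.19, 6.31 and 5.68 times. The block thus held many of the weakest peaks and many of the strongest, with fewer of the middle ones. Of the weak peaks, 19.0, 15.4, 18.8 and 24.4% lay within 5 kb of a strong peak, and sequence that close to one made up 12.9, 13.6, 13.4 and 15.7% of the block, so most weak peaks were away from the strong ones.

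**Figure D2:**
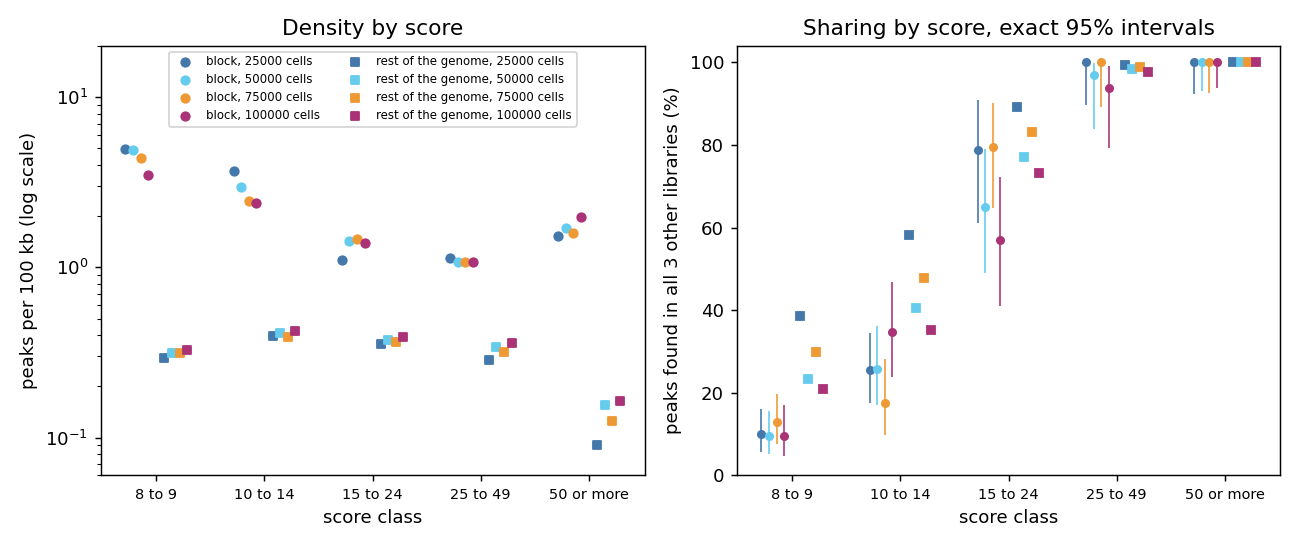
Left, peaks per 100 kb (log scale) by score class; right, the percentage of peaks overlapping a peak of all 3 other libraries, with exact 95% intervals; circles are the block and squares the rest of the genome, coloured by cell number. In the 8 to 9 class the block's points lie at 3.47 to 4.97 peaks per 100 kb and at 9.52 to 12.9% shared, against 0.292 to 0.326 per 100 kb and 20.9 to 38.6% shared in the rest.

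Strong peaks were also wider than weak ones. The median width was 750, 750, 775 and 750 bp for strong block peaks and 400, 400, 400 and 450 bp for weak ones, from 25000 to 100000 cells. In the rest of the genome the medians were 750, 750, 800 and 800 bp for strong peaks and 550 bp in each library for weak ones. The weak peaks of the block were thus the narrower, but they also scored lower. Their median score was 10 in each library, against 14, 14, 14 and 15 in the rest. Within score classes the median widths were closer. At 8 to 9 they were 300 bp in the block and 350 bp in the rest in each library. At 10 to 14 they were 450, 450, 400 and 500 bp in the block and 500 bp in the rest. At 15 to 24 they were 550 bp in the block and 550, 550, 600 and 600 bp in the rest. Some peaks overlapped another of their own list, at 17.2, 18.8, 18.2 and 19.1% in the block and 12.2, 12.3, 13.6 and 13.9% in the rest.

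A core of the block from 61.7 to 62.4 Mb, chosen after its values were seen, held 182, 175, 155 and 130 peaks, or 48.9, 48.3, 47.0 and 42.1% of the block's peaks. Of these, 23, 25, 24 and 31 were strong and 159, 150, 131 and 99 were weak. Outside the core the block held 190, 187, 175 and 179 peaks, so the difference between the 25000- and 100000-cell libraries lay mostly in the weak peaks of the core.

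The block held fewer of the weaker peaks at each larger number of cells put in, which was not so in the rest of the genome. Block peaks with a score below 15 numbered 259, 236, 206 and 176 from 25000 to 100000 cells, and those of 15 or more 113, 126, 124 and 133. In the rest of the genome, peaks below 15 numbered 18714, 19767, 19218 and 20353. The 100000-cell library thus had 0.680 times as many of the weaker peaks in the block as the 25000-cell library, and 1.09 times as many in the rest. With 1 library per cell number and an unknown depth, cell number and library cannot be told apart.

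**Figure D3:**
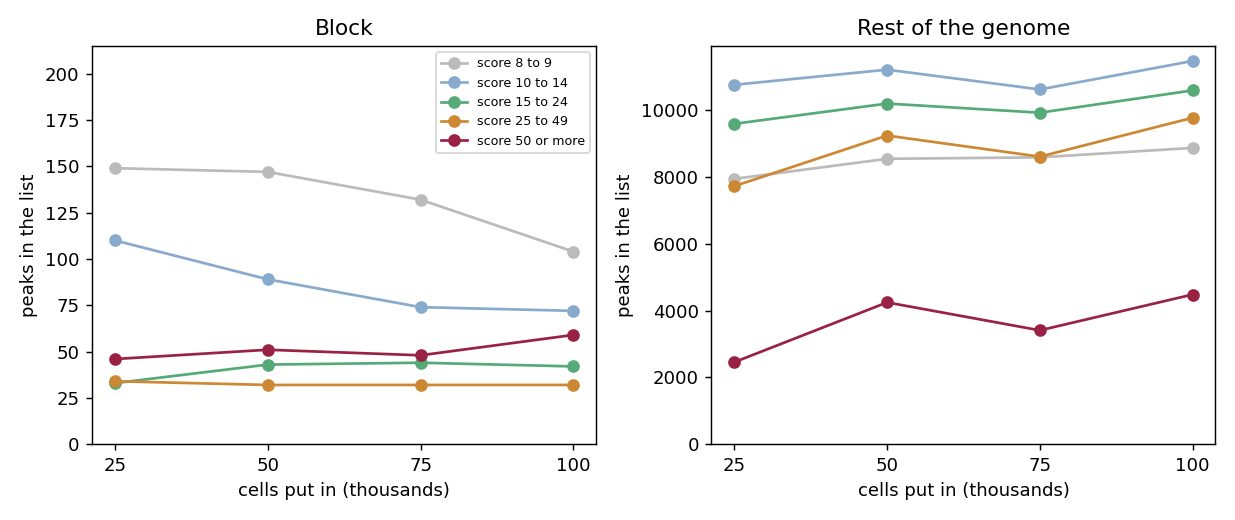
Number of peaks in the list (y axis, from 0) against the cells put in (x axis), 1 line per score class, for the block (left) and the rest of the genome (right). In the block the lines for 8 to 9 and 10 to 14 are lower at 100000 than at 25000 cells, with 149 peaks at 25000 and 104 at 100000 cells in the lower class and 110 and 72 in the other, while in the rest all 5 lines are higher at 100000 cells.

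The lists agreed on the strong peaks of the block and differed in its weak ones. Peaks of different libraries were taken as matching from an overlap of 1 bp. In the block, 149, 147, 145 and 148 peaks were found in all 3 other libraries from 25000 to 100000 cells. These were 40.1% (35.0 to 45.2), 40.6% (35.5 to 45.9), 43.9% (38.5 to 49.5) and 47.9% (42.2 to 53.6) of the block's peaks, against 72.5, 63.7, 67.5 and 61.2% over the whole lists. Peaks found in no other library numbered 126, 113, 101 and 59, or 33.9, 31.2, 30.6 and 19.1%, against 6.72, 9.90, 8.16 and 11.1% over the whole lists. All strong peaks of the block were found in the other 3 libraries, as were all strong peaks of the rest. Between single pairs of libraries, the 25000- and 50000-cell lists had 53.2% of block peaks of the first and 54.7% of the second in common, against 84.3 and 74.0% in the rest of the genome. For the 25000- and 100000-cell lists the shares were 51.3 and 62.5% in the block, against 85.8 and 72.5% in the rest. For the 75000- and 100000-cell lists they were 55.8 and 60.2% in the block, against 83.9 and 76.2% in the rest.

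The difference in sharing was also present within low score classes. At scores of 8 to 9, 10.1, 9.52, 12.9 and 9.62% of block peaks were found in all 3 other libraries, against 38.6, 23.3, 29.9 and 20.9% in the rest. At 10 to 14 the shares were 25.5, 25.8, 17.6 and 34.7% in the block, against 58.2, 40.6, 47.9 and 35.3% in the rest, so at 100000 cells they differed by less than the block's interval. At 15 to 24 they were 78.8, 65.1, 79.5 and 57.1% in the block and 89.3, 77.2, 83.2 and 73.3% in the rest, the rest lying outside the block's interval at 100000 cells and inside it at the other 3 cell numbers. The highest-scoring peaks without a partner in the other libraries scored 15, 16, 14 and 16. They lay 5.17 kb from the lower end of Myc at 25000 cells, at 61503351 to 61503950 at 50000 cells, at 61554601 to 61555150 at 75000 cells and at 61880701 to 61881250 at 100000 cells, each outside annotated genes.

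Counted once each after merging the 4 lists, the block held 634 regions. A peak was present in all 4 libraries in 138 (21.8%), in 3 libraries in 41, in 2 in 97 and in 1 in 358 (56.5%), against backgrounds of 46.3% for all 4 and 26.2% for 1 over all regions. The regions of a single library numbered 114, 101, 89 and 54 from 25000 to 100000 cells. A score of 50 or more was reached in at least 1 library by 61 regions, all of which had a peak in all 4 libraries, and in every library by 44. The other 17 had scores of 21 to 76, so they lay to both sides of the threshold.

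The strong regions lay at the same places in the libraries and kept much of their order. Among 37 regions that were strong in all libraries and held a single peak of each, the centres spread over a median of 25 bp and at most 75 bp, against 50 and 250 bp for 1542 such regions of the rest. Strong peaks had median scores of 119, 122, 118 and 119 in the block and 62, 65, 64 and 65 in the rest. The regions were not matched by score, and a maximum depends on the number of regions. Spearman's rho of the highest score per region between pairs of libraries was 0.909 to 0.944 over the 138 block regions found in all 4, and 0.772 to 0.821 over 25644 regions of the rest. The points of a pair share the depth of its libraries, and rho depends on the spread of scores among the regions compared. The highest score of a region was that of the 100000-cell library in 34 of the 44 block regions strong in all 4 (77.3%), against 39.7% of such regions in the rest, and the depth behind these scores is unknown.

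By position the block differed from the rest of the lists in where its peaks lay. Only 12, 12, 9 and 13 block peaks were centred 1 kb or less from the annotated end of a gene, which is 3.23% (1.68 to 5.57), 3.31% (1.72 to 5.72), 2.73% (1.25 to 5.11) and 4.21% (2.26 to 7.09), against 33.4, 31.5, 32.6 and 31.5% over the whole lists. The block is poor in genes, and 3.80% of its base pairs lie that close to a gene end, so the share was near that of its sequence. Outside genes and more than 1 kb from any gene end lay 69.1, 69.3, 70.0 and 71.2% of the block's peaks, against 25.5, 26.7, 26.1 and 26.8% over the whole lists, and 74.7% of the block's base pairs. Of the 44 regions strong in all libraries, 4 were at a gene end, 11 in a gene body and 29 between genes. That is 9.09% at a gene end, against 65.5% of 1864 such regions in the rest.

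Peaks were spread over both sides of Myc. Between 61 Mb and the lower end of Myc there were 118, 103, 95 and 89 peaks, of which 9, 12, 11 and 12 were strong. Over Pvt1 there were 73, 70, 64 and 53, with 10, 11, 10 and 14 strong, and from Pvt1 to the first Gsdmc gene 163, 174, 151 and 153, with 23, 24, 24 and 29 strong. Per 100 kb, Pvt1 had 32.8, 31.5, 28.8 and 23.8 peaks, against 12, 10.5, 9.64 and 9.03 below Myc and 10.8, 11.5, 9.96 and 10.1 between Pvt1 and Gsdmc. Pvt1 was the densest of these 3 in all 4 libraries. The 47.6 kb between Myc and Pvt1 had 29.4, 23.1, 27.3 and 23.1 per 100 kb. That was below Pvt1 in each library but nearly equal at 100000 cells. Over the 5.02 kb of Myc, 3, 1, 4 and 1 peaks gave 59.7, 19.9, 79.7 and 19.9 per 100 kb. All of these peaks lay in a single merged region, 61986751 to 61988250, which held 9 peaks of the 4 lists. The densities over Myc thus count several peaks of the same place and are not comparable with those of the longer stretches. Gene extents are from RefSeq and carry no strand for Myc and Pvt1, so ends are called lower and upper by coordinate.

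Myc itself (61985341 to 61990361) had strong peaks at and around its lower end. The region over that end, 61984751 to 61985850, scored 186 in the library from 25000 cells, 251 in that from 50000, 235 in that from 75000 and 297 in that from 100000 cells, ranking 21, 16, 16 and 12 in the lists outside the mitochondrial chromosome. A region 1.89 kb below it, chosen after its values were seen, scored 171, 198, 157 and 225. Inside the gene, 61986751 to 61988250 scored 223, 259, 200 and 273, and beyond the upper end, 61991701 to 61992950 scored 79, 122, 119 and 153. All 4 of these regions were strong in every library, and none lay within 1 kb of the upper end. Between Myc and Pvt1 lay 14, 11, 13 and 11 peaks.

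Pvt1 (62037986 to 62260215) had a strong region at its lower end, 62037501 to 62038300, with scores of 154, 186, 185 and 222. Inside the gene the highest was 62079001 to 62080050, with 534, 583, 531 and 613, ranking 5 in each list. It was followed by 62118751 to 62119600 with 350, 410, 459 and 519, by 62043501 to 62044250, 5.89 kb above the lower end, with 390, 399, 370 and 376, and by 62106301 to 62107100 with 211, 236, 202 and 291. The region 5.89 kb above the lower end scored higher than that at 62118751 at 25000 cells, and lower at the other 3 cell numbers. At the upper end of Pvt1 the nearest region, 62261301 to 62262150, was 1.51 kb beyond it and scored 68, 72, 71 and 85.

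Macroh2a3, annotated as a transcribed pseudogene and lying inside Pvt1, had a peak at its lower end with scores of 99, 106, 73 and 129. Gm41334 had a strong peak at its lower end, away from the promoter shown above, with 102, 124, 110 and 144, and peaks of 8, 8, 15 and 11 at its upper end. Gm30113 had weak peaks of 9, 13, 9 and 9 at its lower end.

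Beyond Pvt1 the strong regions continued up to 63.6 Mb. The highest of the block, 62328101 to 62329350, 68.5 kb above Pvt1, scored 618, 832, 839 and 911 and ranked 3 in each list. Others of the 12 leading regions there were 62286551 to 62287850, 27.0 kb above Pvt1, with 337, 352, 403 and 406, and 62500701 to 62501600, 241 kb above it, with 379, 450, 423 and 471. The farthest of the 12 leading regions, 63340251 to 63341150, was 1350 kb above Myc and scored 243, 341, 334 and 401. Below Myc the leading ones were 61609401 to 61610200, 376 kb below, with 278, 264, 240 and 283, and 61532551 to 61533400, 452 kb below, with 169, 244, 231 and 304. None of these 6 lay inside an annotated gene. The 5 regions that follow, as well as the genes Gm20740 and Gm29904, were chosen after their values were seen. Near Gm20740, an lncRNA gene, 63397151 to 63398200 scored 125, 169, 120 and 166, and 63411501 to 63412200, 2.55 kb below its lower end, scored 149, 168, 153 and 183. The region 63461901 to 63462750 inside that gene scored 88, 118, 95 and 95. The last strong region before the Gsdmc genes, 63601301 to 63602000, scored 96, 77, 60 and 75 and was highest at 25000 cells. At the other side, 61293851 to 61294750 inside Gm29904 was the first to reach 50 in any library, with 33, 36, 43 and 54.

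**Figure D4:**
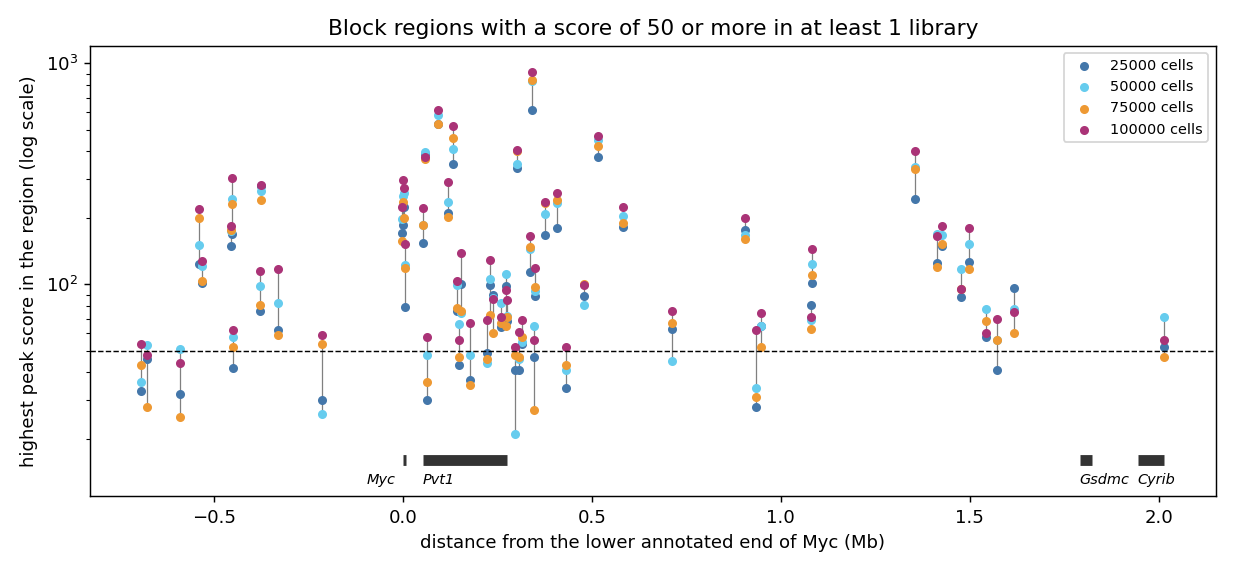
Highest peak score (log scale) in each of the 61 block regions with a score of 50 or more in at least 1 library, against its distance from the lower annotated end of Myc in Mb; points are the 4 libraries, joined by a grey line, with the broken line at 50 and gene extents below. The highest region is 343 kb above that end, and the last before Cyrib is 1616 kb above it.

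The Gsdmc genes were nearly without peaks. Gsdmc had a single weak peak inside it, 63800701 to 63801200, with a score of 9 at 50000 cells and 10 at 75000 cells and none at 25000 and 100000 cells. Gsdmc2, Gsdmc3, Gsdmc4, Gsdmcl1, Gsdmcl2 and Gsdmcl-ps had none in any library, neither in the gene nor within 1 kb of its ends. The lists hold only scores of 8 or more, so signal below that is not seen. From the lower end of Gsdmc to that of Cyrib, over 153 kb, there were 0, 1, 1 and 0 peaks. That was 0, 0.653, 0.653 and 0 per 100 kb, against 1.42, 1.60, 1.51 and 1.66 in the rest of the genome. Such sparse sequence is common, as the median bin of 100 kb had 0.250 peaks and 46.5% of bins had none in any library. The share of all genes without any peak is not at hand.

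Cyrib (63929094 to 64060778) runs past 64 Mb. Its region 63997551 to 63998650 lay inside the gene and scored 52, 71, 47 and 56; no other region of the block above 63.7 Mb reached 50 in any library. At its upper end, outside the block, peaks of 11 and 12 were present at 50000 and 100000 cells and none at 25000 and 75000 cells. The nearest protein-coding genes outside were A1bg, with no peak, and Asap1, which encodes an Arf GTPase-activating protein and had peaks of 13, 11, 16 and 26 at its upper end. Lratd2, beyond A1bg and likewise chosen after its values were seen, had peaks of 32, 49, 40 and 42 at its upper end.

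In all, 32 annotated genes overlapped the block, 6 of them protein-coding and 12 lncRNA genes. A gene-end peak was seen in every library at 5, namely Myc, Pvt1, Macroh2a3, Gm30113 and Gm41334, and in none at 19. Over the genome, 24.9% of all 49956 placed genes outside the mitochondrial chromosome had a peak at an end in every library, and 43.9% of the protein-coding ones. For genes without a gene-end peak in any library, the share over the genome is not at hand. Of 14 genes of the MYC network elsewhere and here, 9 had such a peak in every library, 2 in some and 3 in none. Among the partners and antagonists of MYC, Max, the dimer partner, had gene-end peaks of 51, 107, 67 and 72, and Mnt, a repressor that also pairs with MAX, had 103, 110, 111 and 109. Mxd1, a MAX-binding repressor, had 102, 124, 107 and 119. Of the others among the 14, Mxd4 had 101, 132, 108 and 134 and Mlxip 75, 73, 89 and 86. Mxi1 had 56, 67, 36 and 70. Lower values were those of Mlx, with 28, 40, 29 and 42, and Mxd3, with 13, 31, 25 and 32. Mycl had 8, 8 and 9 at 25000, 50000 and 75000 cells, and Zbtb17 had 12 and 19 at 25000 and 100000 cells. Mga and Mlxipl had peaks inside the gene in every library but none at an end. Mycn, the paralogue that is mainly active in neural and embryonic tissue, had no peak in the gene or at its ends in any library. The Myc region at its lower end scored above all of these in each library. Because scores helped to choose the block, this ranking is a description only. The number of copies of the block was not measured.

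The label of the cells was checked with marker genes. The lists are short, and over the genome 43.9% of protein-coding genes had a peak at an end in every library. Of 8 epithelial genes, 6 had a peak at an end in every library, Cldn7 in 1 library and Epcam in none. None of 5 fibroblast and none of 4 endothelial genes had one in any library, and of 5 blood genes only Spi1 had, with 23, 18, 24 and 40 at its upper end. Some of these genes had peaks further inside. Cdh5, an endothelial cadherin gene, had one of 47, 54, 50 and 57, the fibroblast genes Pdgfra and Pdgfrb had weak ones in every library, and Pecam1 had one of 9, 10 and 9 at 25000, 50000 and 100000 cells. No peak in the gene or at its ends was listed for 3 of the 5 fibroblast, 2 of the 4 endothelial and 4 of the 5 blood genes. The share of all genes without a gene-end peak in any library, or without any peak, is not at hand. The marker genes that lacked peaks thus have no background here and do not by themselves settle the label. The part of other cell types in the peaks of the block was not tested.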

How the data were processed

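The authors deposited 1 list of ATAC-seq peaks per library, each peak with its position and a whole-number score; what it was computed from is not given. Bedtools 2.17.0, Picard 1.107, SAMtools, Bowtie 0.12.8 and cutadapt are named in the submitters' processing notes, as are the builds hg19 and mm10, of which mm10 belongs to mouse. The role of every tool, the peak caller's settings, any shift of reads for the Tn5 cut and any thinning of reads are likewise not given in the sources used here. Each list starts at a score of 8 and carries no read counts, so the depth of every library is unknown. Read placement in repeats could also affect peaks, and no regions were filtered out here.

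Peaks were grouped by library through the cell number in the sample titles and counted as deposited in Python 3.11.15 (numpy 2.4.6, pandas 2.3.3, SciPy 1.17.1). Shares carry exact Clopper-Pearson 95% intervals, and no test was made, since each cell number has 1 library. For the merged regions, peaks of the 4 lists were joined where they overlapped. Gene extents and promoter sequences came from RefSeq tables of GRCm38.p6. Percentiles and ranks were taken within a list outside the mitochondrial chromosome. The block, its members and the gene lists were chosen with earlier results of these data known. Genes named were those of the rule: Myc, Pvt1, the Gsdmc genes, Cyrib, other protein-coding genes of the block, their outer neighbours and genes with a gene-end peak in every library. MYC network and cell type marker genes were named from the gene lists. Regions named were the 12 with the highest mean score percentile, those nearest to the ends of these genes, those at the edges of the dense run and, in each library, the highest-scoring peaks that the other 3 lacked. Lratd2, Gm20740, Gm29904, the Gsdmc3 and Gm20740 promoters and other regions of the text fall outside this rule and were chosen after their values were seen. The counting functions were checked on constructed intervals with known answers. Alternatives were other bins, score thresholds, overlap rules, gene-end windows and leaving out each library.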

Additional observations from a re-analysis of the deposited data

How the results depend on the processing

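Of 128 alternative values, 91 stayed close to the reported value and 37 moved, which for shares, density ratios and percentiles meant leaving the counting interval, for counts a change of over 1.5 times, for edges over 1 bin of 100 kb and for rho over 1 SD across library pairs. For those that moved, the cause was not tested beyond what each setting removes. Another score threshold, or keeping only the higher-scoring peaks, changes a share or count by construction. The tally is therefore not a measure of robustness. With only peaks at or above the median score of each list, the block held 113, 117, 124 and 125 peaks from 25000 to 100000 cells, of which 80.5, 76.9, 71.8 and 72.8% were found in all 3 other libraries, and 155 merged regions, 88 with a peak in every library and 33 in 1. With equal numbers of the highest-scoring peaks, the shared percentage was 52.1 at 50000 and 59.3 at 100000 cells. Sharing over the whole lists was not computed under either setting. These percentages and region counts therefore cannot be set against the whole-list shares given above. The lower edge lay at 61.85 Mb with 50 kb bins, 61.65 Mb with shifted bins and 61.90 Mb with scores of 50 or more. The upper edge lay at 63.20 Mb with 200 kb bins and 63.60 Mb at the 95th percentile. Leaving out each library gave 61.40 to 61.50 Mb for the lower and 62.50 to 62.70 Mb for the upper edge, the last without the 50000-cell library. At a threshold of 25, strong peaks made up 21.5, 22.9, 24.2 and 29.4% of the block, below the 26.4, 31.0, 29.2 and 31.5% of the whole lists in all 4 libraries, and at 100, 7.26, 8.29, 8.48 and 10.7%, above the 0.473, 1.14, 0.778 and 1.10% of the whole lists. The excess over the whole lists thus held at 50 and 100, while at 25 the block's share was the lower. At 25, the whole-list share lay inside the block's interval at 100000 cells and at its upper bound at 75000 cells. Within 2 kb, gene-end peaks made up 6.45, 5.15 and 7.77% at 25000, 75000 and 100000 cells, and with protein-coding genes only 0.538, 0.552, 0.606 and 0.647% from 25000 to 100000 cells. Among autosomal peaks the median percentile was 24.3 at 25000 and 24.4 at 75000 cells. The reported values, 24.4 and 24.5, were themselves the lower bounds of their intervals, so these small changes counted as moved. The median rho was 0.955 over regions with a score of 50 or more in at least 1 library. No paired analysis was possible because each cell number has 1 library and no result comes from a test. Depth is unknown, so a peak missing from a list cannot be told apart from one below its threshold.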
